A study of Mus musculus with 30 samples.

Results

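Mammary tumours of Myc transgenic mice differed widely in Saa1, the gene of the acute phase protein serum amyloid A1, and the 15 RNA extracts of the series were split by that one measurement. The 9 extracts whose Saa1 log2 ratio to the reference RNA was above 3.5 are called Saa1-high (540-B, 546-A, 546-B, 547-A, 550-A, 561-B, 579-A, 579-B and 579-F), and the 6 below it Saa1-low (548-A, 567-B, 579-D, 579-E, 595-A and 597-B), so that all 15 of 15 extracts and all 30 arrays were used. Saa1 chose the groups, so its own values are given as a description with no test. The groups are defined from the data and are not groups of the study: per the labels both consist of total RNA from Myc transgenic mice, with no treatment, age or second genotype that sets them apart. Nothing in the sources used here gives the promoter of the transgene, the cells that carry it, the number of animals or the make-up of the reference.

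Extracts are named by a number and a letter whose meaning the labels leave out. The Saa1-high extracts carry 6 numbers and the Saa1-low extracts 5, and number 579 is the only one found in both, with 3 extracts above the split and 2 below it. Because the labels do not say that extracts came from separate animals, p-values here reflect only how much the extracts vary, and part of that variation may be technical. In such bulk RNA, fewer cells of a type and less RNA per cell cannot be told apart. Both arrays of 550-A and of 561-B, and 1 array of 595-A, were described under tumour progression, and all others under the change from epithelial to mesenchymal cells.

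Serum amyloid A proteins are small proteins carried on lipoproteins that the liver releases in large amounts during inflammation, when IL-6, IL-1 and TNF act through STAT3, NF-kB and C/EBP factors. Saa1 and Saa2 are close copies that make up most of the circulating protein, and Saa3 is the form best known from cells outside the liver, among them macrophages, fat and mammary epithelium. Haptoglobin (Hp), lipocalin 2 (Lcn2) and ceruloplasmin (Cp) belong to the same acute phase response, and several of its genes are also active in mammary epithelium.

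The promoters of Saa1, and of Saa2 and Saa3, which stood higher with it below, are shown because they differ in how much sequence they share. Each line gives the 250 bases before the annotated start, 5′ to 3′ on the gene's strand, from the RefSeq promoter table of assembly GRCm38.p6, with a match to TTGCNNAA on either strand in capitals, a C/EBP-type motif. Saa1 lies on the minus strand (chr7:46742981-46743230), Saa2 on the plus strand (chr7:46751583-46751832) and Saa3 on the minus strand (chr7:46715677-46715926).
Saa1: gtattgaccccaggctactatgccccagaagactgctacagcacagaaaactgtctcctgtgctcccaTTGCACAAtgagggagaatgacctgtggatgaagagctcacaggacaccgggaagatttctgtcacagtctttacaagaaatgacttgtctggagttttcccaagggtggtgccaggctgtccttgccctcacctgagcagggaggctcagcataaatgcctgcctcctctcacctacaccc
Saa2: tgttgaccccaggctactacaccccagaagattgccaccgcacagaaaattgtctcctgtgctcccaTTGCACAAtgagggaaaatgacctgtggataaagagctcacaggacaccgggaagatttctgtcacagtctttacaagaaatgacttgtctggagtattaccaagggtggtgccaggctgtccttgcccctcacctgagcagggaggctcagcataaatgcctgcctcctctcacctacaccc
Saa3: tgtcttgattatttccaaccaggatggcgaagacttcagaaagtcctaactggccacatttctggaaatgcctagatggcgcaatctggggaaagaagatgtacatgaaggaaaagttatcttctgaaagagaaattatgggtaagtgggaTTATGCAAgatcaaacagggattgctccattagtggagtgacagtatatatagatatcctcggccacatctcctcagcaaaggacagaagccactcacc
Aligned end to end, the Saa1 and Saa2 promoters were 94.8% identical, while Saa3 shared 48.5% with Saa1 and 47.8% with Saa2. The capitals begin 182 bases before the start in Saa1, 183 in Saa2 and 99 in Saa3, and each promoter held 1 match. This motif was found in 9.56% of the 32851 promoters of that source, so a match is a description of the letters and not of a bound site. The closeness of Saa1 and Saa2 also bears on the arrays, since the probe sequences were not used here and cross-hybridisation between the copies was not tested.

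Saa1 varied over a wide range. Among the Saa1-high extracts it stood at 7.80 in 579-A, 7.69 in 579-B, 7.67 in 547-A, 7.62 in 561-B, 5.50 in 550-A, 5.16 in 546-A, 4.70 in 546-B, 4.24 in 540-B and 4.02 in 579-F. Among the Saa1-low extracts it stood at 2.67 in 567-B, 0.69 in 597-B, 0.01 in 579-D, -0.86 in 579-E, -1.24 in 595-A and -1.71 in 548-A. The 4 highest extracts lay close together, with gaps below them and between 567-B and 597-B, and 579-F and 567-B were the nearest on either side of the split. The group means were 6.04 ± 1.63 (SD, n = 9) and -0.07 ± 1.60 (SD, n = 6). Of 13 extracts with Saa1 on both arrays, 12 fell on the same side of 3.5 by each array alone; 540-B stood at 5.84 on one array and 2.64 on the other. In 546-A and 595-A the value rested on 1 array. The other array of 546-A had a blank, while that of 595-A held a single high value that recurs across the table and was read here as missing. The place of 595-A in the Saa1-low group depends on that reading, and without this extract 0 probes were called with limma as well, with 839 at an unadjusted p under 0.05.

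**Figure D1:**
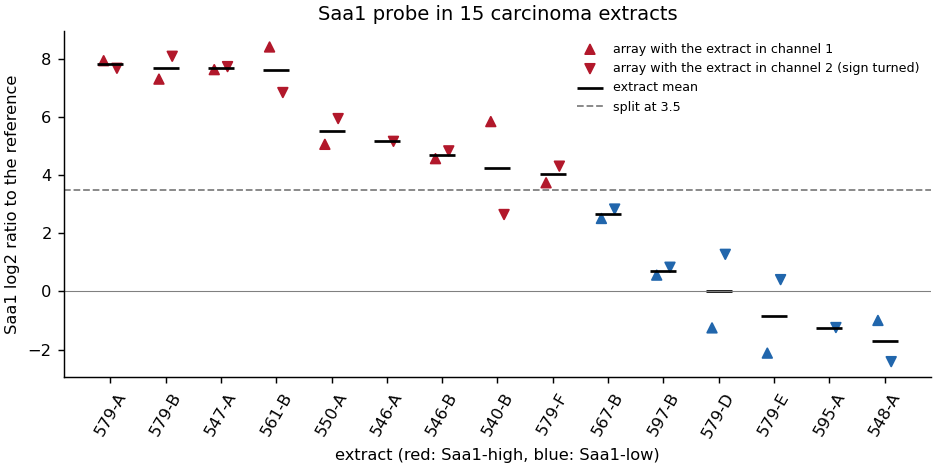
Saa1 log2 ratio to the reference (vertical axis) in each of 15 extracts (horizontal axis), with a triangle per array, upward for the extract in channel 1 and downward for channel 2 with the sign turned, and a bar for the extract mean. The 9 red extracts lie above the dashed split at 3.5 and the 6 blue extracts below it, with 579-F at 4.02 and 567-B at 2.67 next to the line.

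Each value is a log2 ratio of 2 channels, averaged over the 2 arrays of an extract after one orientation was turned in sign, and is positive on the side of Myc. No label states the numerator of the ratio; since the mice carry extra Myc, positive values likely mean more RNA in the extract than in the reference. Higher and lower below assume that, but genes on one side with Saa1 stay with it whichever way the ratio runs. The Myc probe, from which that direction was read, is no separate check of the labelled transgene. It ran from 2.38 to 3.68 in the Saa1-high extracts (median 3.19) and from 2.87 to 3.63 in the Saa1-low extracts (median 3.07). The Saa1-low range thus lay inside the Saa1-high range. A ratio to the reference cannot be compared between genes. Arrays held 13434 to 21991 values, and the paired arrays of an extract correlated over the tested probes with r from -0.04 in 579-F, -0.0026 in 579-E and 0.047 in 597-B to 0.47 in 567-B, so those first 3 extracts repeated least. In 546-A and 548-A, 4020 and 3000 of the tested probes rested on 1 array, where a dye effect does not cancel. Extract medians over all probes ran from -0.17 to 0.44 in the Saa1-high and from -0.25 to 0.32 in the Saa1-low group.

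Over the whole array no gene passed the threshold. Of 12887 probes tested with limma on the extract means, 0 (0%) reached an adjusted p under 0.05, and the smallest adjusted p was 0.612, for Pla2g4a, a cytosolic phospholipase. At an unadjusted p under 0.05 stood 743 probes (5.77%), and 494 when 579-D was left out. Counted by gene, with 1 probe each, 451 of 9918 genes (4.55%) were higher in the Saa1-high group at that p and 149 (1.5%) were lower. These shares are the background against which each gene list is read. The median difference over all genes was 0.09, and 60.6% of all genes had a difference above 0. No gene described below passed this test, so each gene list is described by how many of its genes stood at an unadjusted p under 0.05. A fit on all 30 arrays one by one, with a dye effect per probe and the extract as a random block, called 3 genes with limma's adjusted p: Hp (difference 2.76 ± 0.48 SE, adjusted p = 0.0175), Pla2g4a (1.38 ± 0.235, adjusted p = 0.0175) and Arhgdib (0.997 ± 0.178, adjusted p = 0.0178). In the extract means their adjusted p-values were 0.726, 0.612 and 0.726. The single-array fit uses 1 correlation of paired arrays, 0.127, for all probes. For a probe whose paired arrays agree more closely, it treats 2 arrays of an extract too nearly as separate extracts. The p-value of such a probe is then too small. Whether this holds for these 3 genes was not tested, so the 3 calls rest on that setting.

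Among the acute phase genes, haptoglobin and 2 further serum amyloid genes stood higher in the Saa1-high group. Of 32 listed genes 19 were tested. Of these, 3 were higher at an unadjusted p under 0.05, where 4.55% of all genes were, and 0 were lower. Differences above 0 were found for 17 of 19 genes, against 60.6% of all genes (median 0.54). Hp, whose protein binds free haemoglobin, ran from -0.12 to 4.36 with a median of 1.81 in the Saa1-high extracts, and from -3.02 to 0.26 with a median of -0.52 in the Saa1-low extracts. Only 579-F of the Saa1-high group lay within the Saa1-low range, and 561-B was the highest of all. The difference was 2.76 ± 0.61 (SE), a 6.78-fold difference of the ratio (adjusted p = 0.726). It stayed on the same side under every alternative tried, and was 1.48 within number 579 and 3.40 outside it.

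Saa3 separated the extracts in a different way. It stood at 0.76 in 579-A, 0.82 in 579-B, 0.65 in 547-A and 0.77 in 561-B, the 4 extracts highest in Saa1, and at -0.87 or lower in every other extract. The remaining Saa1-high values were -0.87 in 546-A, -0.94 in 579-F, -2.03 in 550-A, -2.23 in 540-B and -2.52 in 546-B. In the Saa1-low group Saa3 ran from -5.61 in 595-A to -1.42 in 579-E with a median of -2.68, so 3 of the 9 Saa1-high extracts lay inside that range. The difference was 2.37 ± 0.69 (SE; adjusted p = 0.759), 2.35 within number 579 and 2.38 outside it.

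Saa2, the close copy of Saa1, was also highest in those 4 extracts, at 1.13 in 579-A, 0.79 in 579-B, 0.71 in 547-A and 0.45 in 561-B. In the other Saa1-high extracts it stood at 0.21 in 546-A, -0.09 in 550-A, -1.03 in 540-B, -1.09 in 579-F and -2.02 in 546-B. The Saa1-low values were 0.29 in 579-E, -0.15 in 595-A, -0.27 in 567-B, -2.62 in 597-B, -4.41 in 579-D and -5.20 in 548-A. The first 3 of these lay inside the Saa1-high range although Saa1 itself was low there, so the 2 probes did not follow each other extract by extract (r = 0.65 over 15 extracts, given as a description). The group difference was 1.96 ± 0.81 (SE; adjusted p = 0.849).

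Other serum amyloid probes differed less. Saa4, the form expressed without inflammation, stood at 0.40 and -0.02 as group means, a difference of 0.43 ± 0.56 (SE), and without 548-A it was -0.17. A second Saa4 probe had no value in 548-A, so it was not tested, and gave -0.83 over the other 14 extracts. The pseudogene probe Saa-ps gave a difference of 0.47, and Saal1, a gene that shares part of the name, 0.22.

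The remaining acute phase genes overlapped widely between the groups. Lcn2, a siderophore-binding protein of inflamed and secretory epithelium, stood at 6.09 and 5.69 as means of the Saa1-high and Saa1-low groups (difference 0.39 ± 0.43 SE). Cp, the copper ferroxidase, stood at 0.33 and -0.94, with a difference of 1.27 ± 0.73 (adjusted p = 0.872), and Cd14, a co-receptor for bacterial lipopolysaccharide, at 1.06 and 0.27, with a difference of 0.79 ± 0.38. Cp was lowest in 548-A (-3.54), 579-D (-2.89) and 597-B (-2.07), while the other Saa1-low extracts reached 0.90 to 1.00, so the low mean rested on part of the group. Ltf, the milk and granule protein lactoferrin, gave 0.98 ± 1.06, and Cfb, complement factor B, 0.53 ± 0.76. The only differences below 0 were those of Lrg1, a secreted glycoprotein (-0.20 ± 0.69), and Crp, C-reactive protein (-0.15 ± 0.33), and neither reached a p under 0.05.

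The list as a whole rested on 2 Saa1-low extracts. Averaged over its 19 genes, the list ran from 0.42 (550-A) to 1.71 (561-B) in the Saa1-high group and from -1.23 (548-A) to 1.32 (595-A) in the Saa1-low group. In the Saa1-low group 567-B, 579-E and 595-A stood at 1.13, 1.18 and 1.32, inside the Saa1-high range. Without 548-A and 579-D the list's median difference was -0.08 in place of 0.54, with 2 genes at p under 0.05. Leaving out 1 extract at a time gave medians from 0.13 (without 548-A) to 0.69, and 2 to 5 genes at p under 0.05; 567-B and 595-A were the extracts without which 5 were reached.

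**Figure D2:**
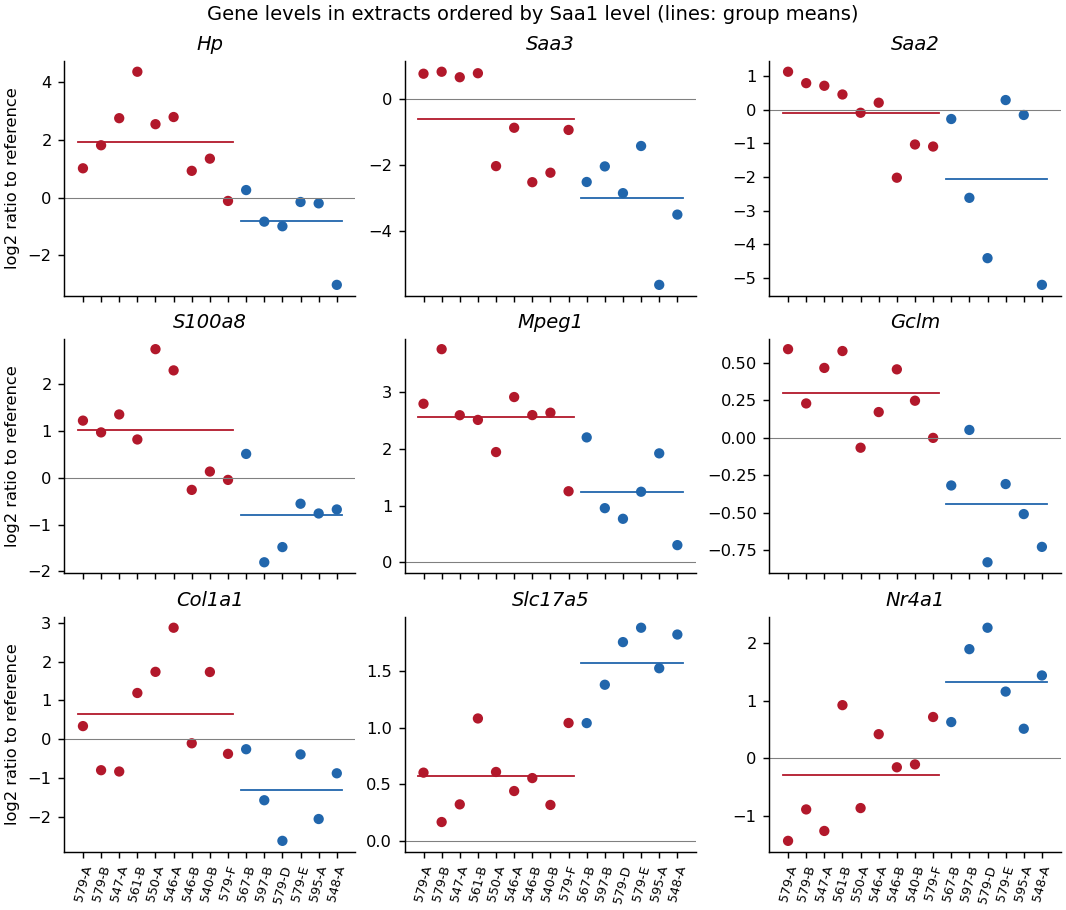
Log2 ratio to the reference (vertical axes) of 9 genes in the 15 extracts, ordered from left to right by falling Saa1 level (red for Saa1-high, blue for Saa1-low, lines for group means). Hp and Saa3 are high at the left, with Saa3 above 0 only in the first 4 extracts, while Slc17a5 and Nr4a1 stand higher in the blue extracts.

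Transcripts of the cytokine pathways known to act on Saa1 did not reach the unadjusted threshold. Of 26 listed genes of the IL-6 family and STAT3 response 18 were tested, and 0 reached an unadjusted p under 0.05 in either direction with limma (median difference 0.21). Socs3, the feedback inhibitor induced by STAT3, stood at -0.15 and -0.77 in the 2 groups, a difference of 0.63 ± 0.35 (SE; adjusted p = 0.872). Cebpb, a C/EBP factor of acute phase genes, gave 0.36 ± 0.22 and Stat3 itself 0.14 ± 0.26. Il6 was dim on these arrays and gave 0.08 ± 0.62.

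Of 30 listed genes of the IL-1, TNF and NF-kB response 23 were tested, and 0 reached that p (median difference 0.17). Tnfaip2, induced by TNF, gave 0.78 ± 0.37 (SE) and the adhesion receptor Vcam1 1.26 ± 0.70, while Nfkbia, the inhibitor that NF-kB induces, gave -0.14 ± 0.30. The chemokine Ccl5 stood lower, at -1.50 against -0.28, a difference of -1.22 ± 0.70.

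Genes of macrophages and other myeloid cells stood higher in the Saa1-high extracts. Of 15 tested genes 8 were higher at an unadjusted p under 0.05, where 4.55% of all genes were, 0 were lower, and the median difference was 0.62. Mpeg1, a pore-forming protein of macrophages, ran from 1.26 to 3.77 with a median of 2.60 in the Saa1-high extracts and from 0.30 to 2.21 with a median of 1.10 in the Saa1-low extracts. Its 2 groups overlapped through 550-A and 579-F on one side and 567-B and 595-A on the other, and the difference was 1.33 ± 0.35 (SE; adjusted p = 0.726).

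Tyrobp, the signalling adaptor of myeloid receptors, ran from 0.90 to 2.17 (median 1.59) in the Saa1-high and from -0.18 to 1.23 (median 0.55) in the Saa1-low extracts, a difference of 1.01 ± 0.27 (SE; adjusted p = 0.726). Mrc1, the mannose receptor of tissue macrophages, gave 1.32 ± 0.47 and was highest in 540-B (2.89), 546-A (2.67) and 550-A (2.16). Laptm5 (0.90 ± 0.27), Apoe (0.79 ± 0.34), Ptprc, which encodes the leukocyte antigen CD45 (0.69 ± 0.28), Cd53 (0.57 ± 0.20) and Fcer1g (0.55 ± 0.26) made up the 8. Not all macrophage genes reached that p: the complement gene C1qb gave -0.09 ± 0.37, the lysozyme gene Lyz2 0.06 ± 0.25 and Cd68 0.30 ± 0.25. Of the 15 differences 14 were above 0, against 60.6% of all genes, and C1qb was the exception. The genes of the other C1q subunits, C1qa and C1qc, gave 0.48 ± 0.24 and 0.88 ± 0.44, just short of that p.

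Averaged over the 15 genes, the myeloid level ran from 0.41 (579-F) to 1.48 (546-A) in the Saa1-high and from -0.02 (548-A) to 0.97 (567-B) in the Saa1-low group. The median difference was 0.64 both within number 579, with 0 of 15 genes at p under 0.05, and outside it, with 5. With groups set from the channel 2 arrays and tested on the channel 1 arrays, 3 genes were at that p (median 0.46). In the reverse case 5 were (median 0.31). The count at p under 0.05 was 6 after array medians were subtracted, 5 without 579-D and 3 without both 548-A and 579-D, and the median then was 0.39. Without 546-A as well, the count was 2 and the median 0.34. Lymphocyte genes, 7 tested, had 0 at p under 0.05 and a median of 0.10.

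Neutrophil genes were mixed. S100a8, a calcium-binding alarmin abundant in neutrophils and also made by stressed epithelium, stood at 2.74 in 550-A and 2.29 in 546-A, and over the Saa1-high extracts ran from -0.26 to 2.74 with a median of 0.97. In the Saa1-low extracts it ran from -1.81 to 0.51 with a median of -0.72, with only 567-B above 0. The difference was 1.82 ± 0.46 (SE; adjusted p = 0.726), 1.73 within number 579 and 1.86 outside it. Its partner S100a9 gave 0.26 ± 0.31, Mmp9 0.79 ± 0.37 and the granule gene Camp 0.16 ± 0.28, and of the 10 tested genes the elastase gene Elane was the only other at p under 0.05 (1.04 ± 0.39).

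Collagen and other matrix genes made up the list with the largest median difference. Of 17 tested genes of fibroblasts and matrix 11 were higher at an unadjusted p under 0.05, against 4.55% of all genes, 0 were lower, and the median was 1.53. Col1a1, a chain of type I collagen, ran from -0.83 to 2.87 with a median of 0.34 in the Saa1-high extracts and from -2.61 to -0.26 with a median of -1.22 in the Saa1-low extracts. The 4 highest were 546-A (2.87), 550-A (1.74), 540-B (1.73) and 561-B (1.19), and 6 of the 9 Saa1-high extracts lay above the whole Saa1-low range. The difference was 1.93 ± 0.57 (SE; adjusted p = 0.76).

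Its partner chain Col1a2 gave 1.88 ± 0.53 (SE) and Col3a1, of type III collagen, 2.10 ± 0.73. Col5a1 and Col5a2, the chains of type V collagen, gave 1.68 and 1.73, Fbln2 (fibulin 2) 2.07, Fstl1 1.88, Dcn (decorin) 1.47 and Postn (periostin) 1.46. Pdgfrb, the receptor of pericytes and fibroblasts, gave 0.99 ± 0.30. The tested matrix genes beyond the 11 did not reach an unadjusted p under 0.05. Among these, Fap, a protease of activated fibroblasts, had the only difference below 0 in the list (-0.28 ± 0.53).

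These genes did not follow the Saa1 level within the Saa1-high group. The list mean was highest in 546-A (1.26), 550-A (0.97) and 540-B (0.77), whose Saa1 lay between 4.24 and 5.50. In the 4 extracts with the highest Saa1 it stood at -0.34 (561-B), -0.85 (579-A), -1.08 (579-B) and -1.32 (547-A). In the Saa1-low group it ran from -2.59 (579-D) to -0.50 (579-E), so 579-E stood above all 3 Saa1-high extracts of its own number. Within number 579 the median difference was 0.64 with 0 of 17 genes at p under 0.05, and outside it 2.18 with 13. The test of that difference was made for each probe by itself and called 0 probes. Whether the list medians differ was not tested.

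Mesenchymal genes, tested because the submitters named the change from epithelial to mesenchymal cells, stood higher too, by a smaller amount. Of 24 tested, 12 were higher at an unadjusted p under 0.05, where 4.55% of all genes were, 0 were lower, and the median difference was 0.78. Vim (vimentin), an intermediate filament of mesenchymal cells, ran from -3.78 to -1.35 with a median of -3.20 in the Saa1-high and from -4.50 to -3.08 with a median of -3.85 in the Saa1-low extracts, a difference of 1.00 ± 0.38 (SE; adjusted p = 0.849). It was below the reference in every extract. The matrix enzymes Mmp2 and Lox gave 1.68 ± 0.52 and 1.61 ± 0.49, and the transcription factors Prrx1, Zeb1, Snai1, Twist1 and Snai2 gave 1.31, 1.03, 0.95, 0.93 and 0.71. Within number 579 the median difference was 0.21 with 1 of 24 genes at p under 0.05, and outside it 1.08 with 13. Within number 579, 9 of the 24 differences were below 0: Foxc2 (-1.60), S100a4 (-0.94), Pmp22 (-0.53), Hmga2 (-0.28), Cdh2, which encodes N-cadherin (-0.27), Tgfb2 (-0.08), Twist2 (-0.03), Zeb1 (-0.01) and Twist1 (-0.0028). Over all 15 extracts Foxc2 (-0.93 ± 0.54 SE), S100a4 (-0.30 ± 0.41) and Tgfb2 (-0.16 ± 0.27) stood below 0.

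The counts of both lists rested partly on the Saa1-low extracts 548-A and 579-D. Without both, 4 of 17 matrix genes (median 1.21) and 4 of 24 mesenchymal genes (median 0.56) remained at p under 0.05. The Saa1-high extract 546-A mattered too. Without 546-A and 548-A, 10 matrix genes (median 1.30) and 5 mesenchymal genes (median 0.56) were at that p. Without 546-A, 548-A and 579-D, 4 matrix genes (median 0.96) and 2 mesenchymal genes (median 0.39) were. The extracts with arrays described under tumour progression were 550-A, 561-B and 595-A. Without these, 6 matrix genes (median 1.17) and 8 mesenchymal genes (median 0.76) were at that p. Leaving out 1 extract at a time gave 9 to 14 matrix genes and 8 to 14 mesenchymal genes. When the groups were set from the channel 2 arrays and tested on the channel 1 arrays, 2 matrix and 1 mesenchymal gene were at that p, and in the reverse case 6 and 8. Macrophage, matrix and mesenchymal levels shared the extracts that were highest (546-A) and among the lowest (548-A and 579-D), and how much of each list's difference comes from another was not tested.

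**Figure D3:**
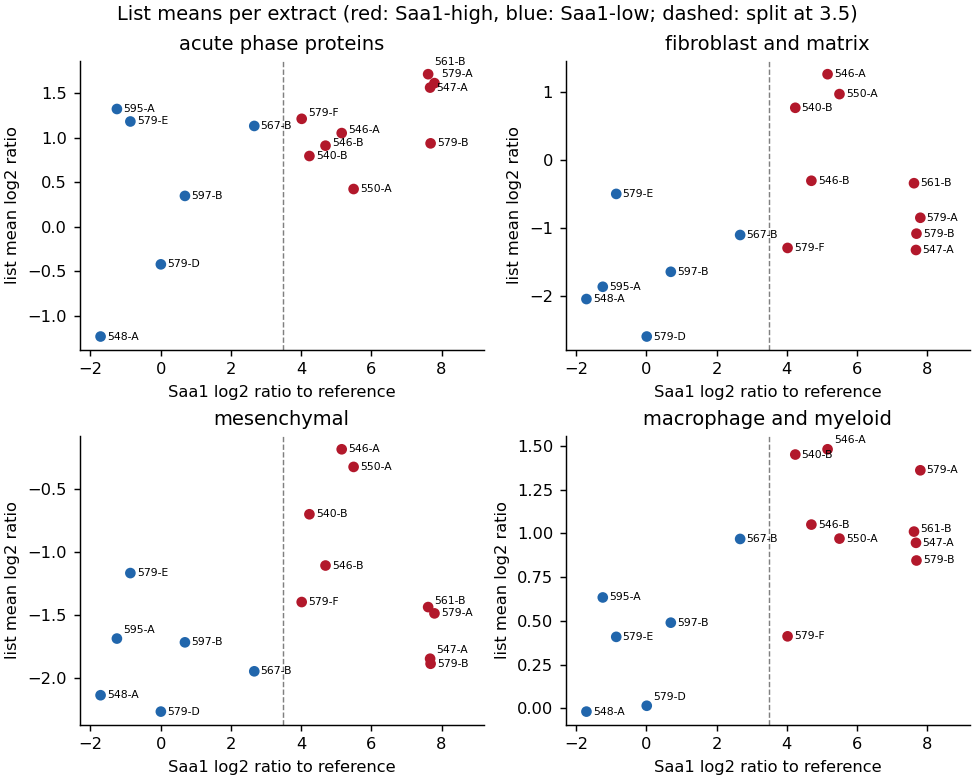
Mean log2 ratio of the tested genes of 4 lists (vertical axes) against the Saa1 log2 ratio (horizontal axes), with a point per extract. The matrix and mesenchymal means are highest in 546-A, 550-A and 540-B rather than in the 4 extracts at the right, and 548-A and 579-D are the lowest for acute phase, matrix, mesenchymal and myeloid genes.

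Epithelial genes had no common direction. Of 21 tested, 0 were higher and 1 was lower at an unadjusted p under 0.05, and the median difference was 0.06. Epcam, an adhesion protein of epithelial cells, stood at 2.92 ± 0.37 and 2.86 ± 0.37 (SD), a difference of 0.06 ± 0.22 (SE; adjusted p = 0.971). Cdh1, which encodes E-cadherin, stood at 2.77 ± 1.66 and 2.24 ± 1.00, a difference of 0.53 ± 0.69. The one lower gene was Spint2, an inhibitor of epithelial serine proteases, at -0.61 ± 0.21 (SE). The list mean ran from 1.53 to 2.48 in the Saa1-high and from 1.76 to 2.60 in the Saa1-low extracts. Of 8 tested basal and myoepithelial genes all 8 differences were above 0, as were 60.6% over all genes (median 0.51), with Acta2, smooth muscle actin, at p under 0.05 (1.03 ± 0.39).

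Genes of liver, the main source of Saa1 in the body, had no common direction. Alb, the gene of serum albumin, stood at 0.39 ± 0.55 and 0.33 ± 0.49 (SD) in the Saa1-high and Saa1-low groups, a difference of 0.06 ± 0.28 (SE). Of 9 tested liver genes the list mean ran from -0.71 to 0.48 and from -0.70 to 0.67, so the ranges nearly coincided. Serpina1a (-1.39 ± 0.56) and Cyp2e1 (1.19 ± 0.56) reached p under 0.05 in opposite directions, both on probes called dim.

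Milk genes differed between extracts much more than between the groups. Csn2, which encodes beta-casein, ran from -0.04 (550-A) to 9.29 (547-A) in the Saa1-high and from 0.60 to 8.61 (567-B) in the Saa1-low extracts, a difference of 2.32 ± 1.49 (SE; adjusted p = 0.884). Within number 579 it stood at 8.36, 7.60 and 5.50 in 579-A, 579-B and 579-F and at 0.60 in both 579-D and 579-E. Outside that number the difference was 0.20. Csn3 (kappa-casein) gave 4.03 within number 579 and -1.01 outside it, and Elf5, the transcription factor of milk-producing cells, 1.97 and 0.37. None of 10 tested milk genes (0) reached p under 0.05 over the 15 extracts.

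A few genes lay far on the other side in part of the Saa1-low group. Fgfr2, a fibroblast growth factor receptor, stood at 7.13 in 548-A, 6.99 in 597-B and 5.93 in 579-D, and between -2.62 and 0.91 in all others. All 3 belong to the Saa1-low group and the other 3 Saa1-low extracts lay within the Saa1-high range, so the difference of -3.83 ± 1.25 (SE; adjusted p = 0.849) describes part of that group. Car6, a secreted carbonic anhydrase of glands, stood at 2.51 ± 2.91 and 5.52 ± 2.96 (SD), a difference of -3.01 ± 1.39 (SE). It was 6.90 or more in 548-A, 579-D, 579-E and 597-B, yet also 6.75 in 546-B and 6.31 in 540-B. In the opposite direction Muc4, a membrane mucin, gave 1.80 ± 0.61 and was highest in 579-B (3.74) and 579-A (3.61), and its second probe gave 1.32.

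**Figure D4:**
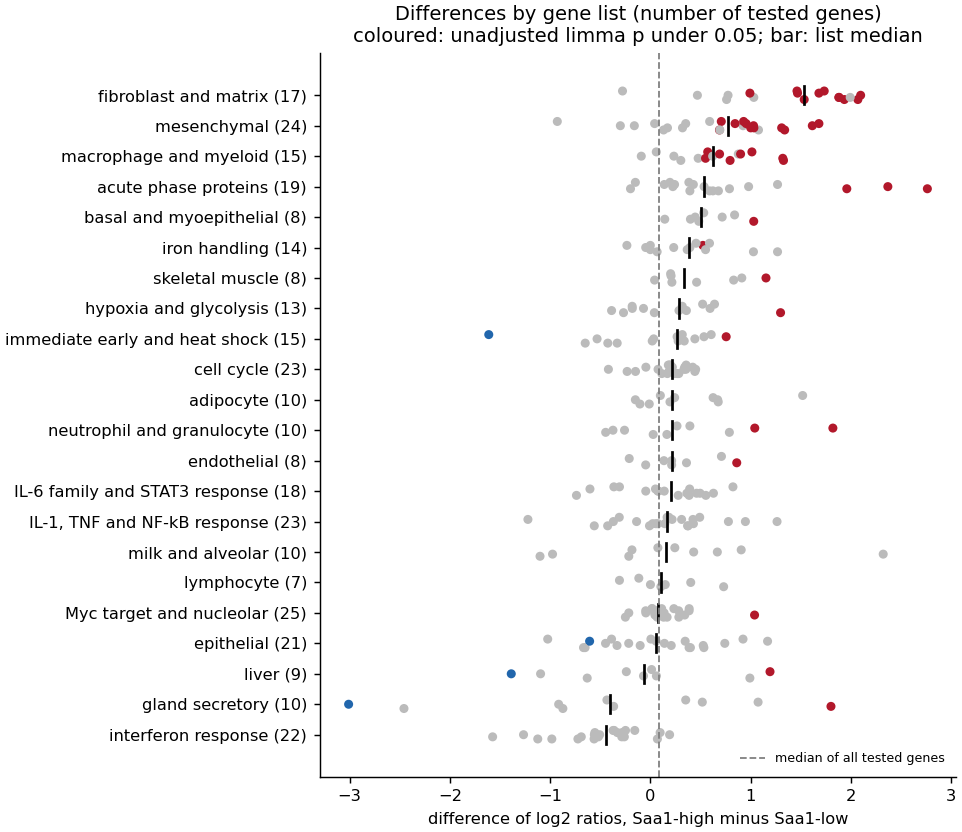
Difference of log2 ratios between Saa1-high and Saa1-low extracts (horizontal axis) for every tested gene of 22 lists (rows, number of genes in brackets), with red for higher and blue for lower genes at an unadjusted p under 0.05, a bar for the list median and a dashed line for the median of all genes, 0.09. Matrix genes reach furthest as a list (median 1.53), and single acute phase genes furthest of all to the right (Hp, 2.76).

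Proliferation genes did not separate the groups at the unadjusted threshold. Of 23 tested cell cycle genes 0 reached an unadjusted p under 0.05 with limma (median 0.22). Yet 19 of the 23 differences were above 0 (82.6%, against 60.6% of all genes). The list median was 0.65 within number 579 and -0.04 outside it. Mki67, a marker of dividing cells, went against its list, at -0.27 ± 0.27 and -0.04 ± 0.48 (SD). Its difference was 0.30 within number 579 and -0.50 outside it. Of 25 Myc target and nucleolar genes only Bop1, a ribosome assembly factor, reached that p (1.04 ± 0.39 SE). There 21 of the 25 differences were above 0 (list median 0.08). Of 22 interferon response genes 0 reached it, and 3 differences were above 0 (median -0.44). Without 546-A, whose interferon list mean of 3.01 was the highest of all, the interferon median was -0.82 and 8 genes were lower at that p. Without 579-E it was -0.70 with 4 genes, without 567-B -0.25 with 0, and without 579-D, the highest Saa1-low extract with a list mean of 2.17, it was -0.18 with 0.

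Of 13 tested hypoxia and glycolysis genes Adm, the vasodilator adrenomedullin, was at that p (1.30 ± 0.46), of 14 iron genes Ftl1, the ferritin light chain (0.52 ± 0.21), and of 8 endothelial genes Cldn5, a tight junction protein (0.86 ± 0.36). Among 15 immediate early and heat shock genes Egr1 was higher (0.75 ± 0.32) and Nr4a1 lower (-1.61 ± 0.40). Adipocyte genes had 0 of 10 at that p, and skeletal muscle genes 1 of 8, the dim probe of Casq1. Counts of 1 in lists this small are about what the shares over all genes give (4.55% higher and 1.5% lower). These single genes do not speak for their lists.

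The genes whose level went most closely with Saa1 over the 15 extracts were named by Pearson's r, as a description with no test; all extracts share 1 reference, and the groups that the split makes are part of the correlation. Gclm, a subunit of the enzyme that starts glutathione synthesis, had the highest r, 0.87 (Spearman 0.84). It ran from -0.07 to 0.59 with a median of 0.25 in the Saa1-high extracts and from -0.83 to 0.05 with a median of -0.41 in the Saa1-low extracts, where only 597-B lay above 0. Pramel3 followed (r = 0.85), then Hp (0.83), Saa3 (0.82), Xpo7, an exporter of nuclear proteins (0.81), Mpeg1 (0.81), Max, the dimer partner of Myc (0.79), and Muc4 (0.78). Max stood at 2.43 ± 0.47 and 1.60 ± 0.61 (SD), a difference of 0.83 ± 0.28 (SE; adjusted p = 0.849), while Myc differed by 0.07 ± 0.22.

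Opposite to Saa1 ran C330004P14Rik (r = -0.88), on a probe called dim, and Slc17a5 (r = -0.86), which encodes sialin, a lysosomal exporter of sialic acid. Slc17a5 ran from 0.17 to 1.08 with a median of 0.56 in the Saa1-high and from 1.04 to 1.88 with a median of 1.64 in the Saa1-low extracts. Only 561-B and 579-F reached the level of 567-B, the lowest Saa1-low extract, and the difference was -0.998 ± 0.197 (SE; adjusted p = 0.705). Nr4a1, an orphan nuclear receptor induced within minutes by many stimuli, ran from -1.44 to 0.92 (median -0.16) and from 0.51 to 2.26 (median 1.30) with r = -0.76. For Nf1 (r = -0.76) another probe of the gene gave 0.66 against the -0.43 of the probe named, so that gene's direction is uncertain.

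Full separation of the groups was rare. Of 12887 tested probes 6 (0.0466%) had every Saa1-high value above every Saa1-low value, and 1 (0.00776%) the reverse. The 6 were probes of Pdlim5, a scaffold protein of the cytoskeleton (1.09 ± 0.31 SE), Mtap, an enzyme that salvages methionine (1.00 ± 0.28), Pramel3 (0.91 ± 0.23), Fxr2, an RNA-binding protein (0.65 ± 0.17), Actr1a, a subunit of dynactin (0.62 ± 0.17), and Zfp287. The gap between the groups was at most 0.135 (Pramel3) and as small as 0.0025 (Fxr2). Zfp287, named here after its values were seen, gave 1.28 on that probe and 0.03 and -0.28 on 2 others whose groups overlapped. The 1 probe on the other side carries no gene name here.

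Number 579 allowed the split to be read within one number. There Saa1 stood at 7.80, 7.69 and 4.02 against 0.01 and -0.86. Hp stood at 1.02, 1.81 and -0.12 in 579-A, 579-B and 579-F and at -0.99 and -0.15 in 579-D and 579-E, so that 579-F and 579-E were nearly equal. Saa3 stood at 0.76, 0.82 and -0.94 against -2.85 and -1.42, and Mpeg1 at 2.80, 3.77 and 1.26 against 0.77 and 1.25, where the same pair lay close together. The test of whether the split differed between number 579 and the other numbers called 0 of 12887 probes (0%) with limma, with 518 at an unadjusted p under 0.05.

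**Figure D5:**
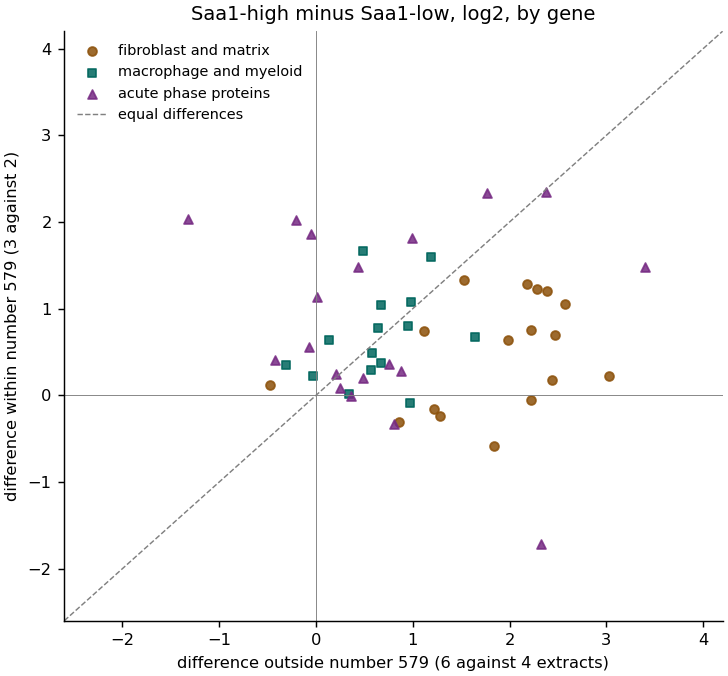
Difference of log2 ratios between Saa1-high and Saa1-low extracts within number 579 (vertical axis, 3 against 2 extracts) and outside it (horizontal axis, 6 against 4), with a point per tested gene of 3 lists. Myeloid genes lie around the dashed line of equal differences (median 0.64 on both axes), and 16 of 17 matrix genes, all but Fap, lie to the right of it (median 0.64 within and 2.18 outside).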

How the data were processed

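Log2 ratios of 2-colour arrays were deposited by the authors as 1 table of 22800 probes on 30 arrays; each of 15 extracts was hybridised in channel 1 and in channel 2 against 1 reference. The scale was read from the values; how background, normalization and filters were handled, and the dyes, is not stated in the sources used here. The value 16.61 (8839 cells) counts as missing here, as do 95268 blank cells, which left 84.8% of the table. Where an array with the extract in channel 1 held this value, the turned value of the paired array had a median of 0.585 (61.4% above 0), and for channel 2 of -0.585 (34.5%).

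Arrays with the extract in channel 2 were turned in sign and the arrays of an extract averaged. Probes with values on at least 24 arrays and in every extract were tested, except the Saa1 probe: 12887 probes, 10749 of them with 1 symbol, for 9918 genes (1 probe per gene, that with the most arrays, then the lowest identifier). Names came from the platform annotation, which listed 17008 probes, 134 with several symbols. The groups were compared with the linear model and empirical Bayes test of limma 3.58.1 under R 4.3.3, with Benjamini-Hochberg adjustment over all tested probes. Dim probes are those with over 50% of values that match, to 3 decimals, log2 ratios between whole numbers no larger than 20 (8.26% of tested probes). Intensities were not used here, so the number of arrays limits the precision. The scripts were tested on simulated data.

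Named genes were those passing the adjusted threshold or with groups that did not overlap, the 8 highest and 4 lowest r to Saa1, the Saa genes, 10 preset genes and the acute phase list. List members at an unadjusted p under 0.05 and 42 further genes, among them those of the cytokine lists and single list members on the other side, were named after their values were seen. The members and all 24 gene lists were chosen with earlier results of these data known.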

Additional observations from a re-analysis of the deposited data

Results flagged for a closer look

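In 88 sets of values (a named gene in one group of extracts) the highest and lowest extract were compared with the rest of the group by Dixon's criterion, which chance meets in about 1 in 20 sets; 6 sets met it. In the Saa1-high group, Pdlim5 stood at 1.12 in 546-A with the next value at 0.36, and Max at 3.55 in 561-B with the next at 2.56. In the Saa1-low group 579-D stood apart for 3 genes: Mtap at -2.55 (next -1.23), Myc at 3.63 (next 3.11) and Lrg1 at 1.20 (next 4.22). Saa4 stood at -3 in 548-A, with the next value at 0.11. Pdlim5 and Mtap are 2 of the genes whose groups did not overlap, and the extract that stood apart lay away from the other group in both. The flags are values only, and what set these extracts apart was not tested.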

How the results depend on the processing

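The comparison of the groups was repeated under 36 settings (orientation, array centring, filters, dye terms, weights, extract number as a block or a mean, Saa1 as a continuous term, extracts left out). In 35 of them 0 probes were called, and in the fit on single arrays with a dye term 3 were called. Between 444 and 1127 probes were at an unadjusted p under 0.05, but the number of tested probes differed between settings. The 444 were of 6801 probes with values on all 30 arrays, and the 1127 of 22721 with values in 3 extracts of each group. Of 12887 probes, 448 were at that p without 548-A and 579-D, and 494 to 862 when 1 extract was left out. The consensus correlation within extract numbers was -0.016. The test of a different split in number 579 called 0 probes under all 4 alternatives. Of 125 named genes 83 kept their sign in every setting that measured them; of the 42 chosen outside the naming rule, 23 did. The median difference of the acute phase list turned to -0.0829 without 548-A and 579-D and to -0.0699 without 546-A as well, 2 settings chosen after seeing the data, as were those that removed each probe's dye effect or left out 579-E, 579-F and 597-B. Subtracting array medians moved the median of all genes from 0.09 to 0.02 and that of the acute phase list from 0.54 to 0.42. No paired analysis was possible because the groups share only number 579. Intensity over background was not used here, so dim probes could be named only from their ratios.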

Other observations

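Outside the lists, the 8 largest differences in each direction at an unadjusted p under 0.05 on probes not called dim were chosen after their values were seen, and none passed adjustment with limma. On the Saa1-high side they held further matrix genes: Mmp13, a collagenase, stood at 1.99 against -0.30 as group means, Col12a1, a fibril-associated collagen, at 2.06 against -0.03, Loxl2, which cross-links collagen, at 0.55 against -1.53, and Thbs2 (thrombospondin 2) at -0.34 against -2.20. Mmp13 and Col12a1 were highest in 546-A (4.95 and 5.65), followed by 540-B (3.30) and 550-A (3.11), the extracts that also led the matrix list. Padi4, an enzyme that converts arginine to citrulline in neutrophils, stood at 1.93 against -0.39. Its low mean rested on 548-A (-4.46) and 567-B (-3.20). The other Saa1-low extracts ran from 0.90 to 2.35, inside the Saa1-high range, and the difference was -0.14 within number 579. S100a6 stood at -2.36 against -4.34, Adgre5, a receptor of leukocytes, at 0.65 against -1.22, and Epb41l4a at 1.68 against -0.76.

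On the Saa1-low side stood Etv1, an ETS transcription factor, at -0.99 in the Saa1-high against 0.84 in the Saa1-low group, with 2.07 in 579-D, 1.67 in 597-B and 1.34 in 579-E. Tesc, a calcium-binding protein, stood at 0.10 against 2.43 and was highest in 579-D (4.07), 597-B (3.81) and 548-A (3.18), the extracts high in Fgfr2. Arg1, which encodes arginase 1, stood at 2.53 against 4.39, with 6.87 in 597-B, 6.22 in 579-D and 5.01 in 595-A but 1.42 in 579-E. Gpx2, an epithelial glutathione peroxidase, stood at 1.97 against 4.33, and reached 6.80 in 597-B and 6.37 in 548-A but also 5.94 in 579-A. The others were Ocm (-1.69 against 0.67), Map7d2 (-1.59 against 0.30), Akp3 (-0.88 against 1.00) and Card14 (0.75 against 2.58).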
